A study of Mus musculus with 25 samples.

Results

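Atrial cardiomyocyte marker genes are transcripts that working muscle cells of the atria make at much higher levels than those of the ventricles. The 8 genes described here, Sln, Myl7, Myl4, Mybphl, Sbk2, Sbk3, Bmp10 and Dkk3, were taken as a named list, and their transcript values were summed per gene symbol. They were 8 of 35969 genes with a transcript in the table and 8 of the 11983 genes that were tested. The tissue was myocardium of 25 male mice, labelled heart in the sample records and left ventricular (about 10 mg) in the RNA extraction protocol, so transcripts of atrial muscle were measured in a sample described as ventricular. How far these genes vary between mice of the same group, whether they vary together, and whether diet, genotype or carnosine moved them were asked in turn.

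Each of 5 groups held 5 mice, and these were WT CNTL, WT HFHS and WT HFHS + Carnosine, with GPx4+/- CNTL and GPx4+/- HFHS as their heterozygous counterparts. GPx4+/- mice were heterozygous for Gpx4, the gene of glutathione peroxidase 4, which reduces lipid hydroperoxides; the line was kept by backcross to C57BL6/J, and the WT mice were littermates. Diets began at 8 to 10 weeks of age and lasted 16 weeks. The control diet (CNTL) supplied 6% of energy as fat, and the high fat high sucrose diet (HFHS) 35.5% as lard-based fat, 1.5% as cholesterol and 38% as sucrose. Carnosine, a dipeptide of beta-alanine and histidine, was given at 80 mM in drinking water from week 7. All mice were fasted and then received dextrose or saline before death, and which mouse received which is not in the sample labels. Carnosine in GPx4+/- HFHS mice was not analysed here. Replicate numbers name different animals.

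In the adult heart each chamber has its own set of contractile and signalling proteins. Atrial muscle uses atrial forms of the myosin light chains (Myl7 and Myl4) beside the ventricular forms (Myl2 and Myl3) found below the valves. It restrains the sarcoplasmic reticulum calcium pump SERCA with sarcolipin (Sln), whereas ventricular muscle relies on phospholamban (Pln). Bmp10 is a secreted ligand of the BMP family made mainly by the right atrium, and Dkk3 belongs to the Dickkopf family of secreted proteins, whose other members block Wnt signalling.

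Values are scaled TPM unless stated, that is TPM (the abundance of a transcript per transcript length, as a share of its library) divided by a scaling factor per library, so levels of different genes can be compared. TPM keeps no read depth, and no counting error is given. Gpx4 checked the labels, with 590 to 777 in the 15 WT libraries and 250 to 382 in the 10 GPx4+/- libraries. Mitochondrial transcripts held 31.3% to 48.7% of a library's TPM, and 11652 to 12305 genes reached 1 TPM. Transcripts of 8 ventricular markers summed to between 19126 and 26526 in each mouse. A library that stood apart for another reason was GPx4+/- CNTL replicate 2, whose 7 hepatocyte markers summed to 1326 against 15.4 to 133 in the mice below the gap described next.

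Sln, Myl7, Myl4 and Mybphl had their widest gap between the same mice, and the other 4 members did not. In Sln, 6 mice had 11.2 or more and the next mouse had 0.984, the widest step in that gene on the log2 scale (2.98 of a range of 8.64). The 6 mice, in order of Sln, were GPx4+/- CNTL replicate 1, WT CNTL replicate 3, GPx4+/- HFHS replicate 4, GPx4+/- CNTL replicate 2, WT HFHS + Carnosine replicate 2 and WT HFHS replicate 1. Every group therefore held 1 such mouse, and GPx4+/- CNTL held 2. They are treated below as single mice and not as a group of the study, and each comparison between groups is given with and without them. Because the tissue was sequenced in bulk, more cells of a type and more RNA per cell cannot be told apart.

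The sequences that follow show members whose behaviour differs. The coding sequence of Sln, the gene that set the gap, is shown because its protein has only 31 residues. It was read from the GENCODE M21 transcript Sln-201, lies at chr9:53853473-53853568 on the plus strand of GRCm38, and has its start and stop codons in capitals.
Sln: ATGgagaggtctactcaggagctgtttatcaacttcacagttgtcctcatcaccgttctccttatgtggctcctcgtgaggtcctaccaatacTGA

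The 250 bases before the annotated start (RefSeq, GRCm38.p6) are shown for Myl7 and Mybphl, which followed Sln, for Sbk2, which did not fall to 0 in any mouse, and for Bmp10, which was high in 1 mouse. RefSeq promoter entries matched 6 of the 8 members. That of Myl4 lies 26618 bases before the start of the transcript that held 96.4% of Myl4, and that of Sbk3 overlaps an annotated transcript, so neither is shown. Myl7 lies on the minus strand (chr11:5898783-5899032), Mybphl on the plus strand (chr3:108364661-108364910), Sbk2 on the minus strand (chr7:4964407-4964656) and Bmp10 on the plus strand (chr6:87428744-87428993). Each is printed in the direction of its gene.
Myl7: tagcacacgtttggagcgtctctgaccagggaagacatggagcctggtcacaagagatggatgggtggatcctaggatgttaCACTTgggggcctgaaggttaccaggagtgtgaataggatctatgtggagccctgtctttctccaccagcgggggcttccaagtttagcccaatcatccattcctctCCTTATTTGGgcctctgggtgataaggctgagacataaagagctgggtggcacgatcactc
Mybphl: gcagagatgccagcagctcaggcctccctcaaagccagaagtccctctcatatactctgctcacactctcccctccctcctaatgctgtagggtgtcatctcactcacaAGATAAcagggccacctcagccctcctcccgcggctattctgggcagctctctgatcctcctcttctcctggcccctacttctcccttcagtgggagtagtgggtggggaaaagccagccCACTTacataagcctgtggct
Sbk2: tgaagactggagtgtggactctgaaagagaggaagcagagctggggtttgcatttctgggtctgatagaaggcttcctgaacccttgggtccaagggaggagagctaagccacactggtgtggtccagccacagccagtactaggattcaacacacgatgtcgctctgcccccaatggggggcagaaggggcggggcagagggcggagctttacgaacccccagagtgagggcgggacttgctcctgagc
Bmp10: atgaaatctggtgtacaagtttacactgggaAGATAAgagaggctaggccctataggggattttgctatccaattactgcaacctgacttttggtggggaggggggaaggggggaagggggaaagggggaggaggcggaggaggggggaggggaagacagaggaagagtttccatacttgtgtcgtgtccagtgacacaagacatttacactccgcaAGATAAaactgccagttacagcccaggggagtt

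Capitals mark matches, on either strand, to motifs of factors known in cardiac muscle. Factors of the GATA family were searched by the letters AGATAA, the homeodomain factor NKX2-5 by the letters AAGTG, factors of the T-box family by the letters AGGTGT, and nuclear receptors by the letters AGGTCA. The core promoter element known as the TATA box was searched by the letters TATAAA, and the MEF2 site and the SRF CArG box by their usual consensus. The Myl7 window held a CArG box from base -61 to -52 relative to the start site and an NKX2-5 match from -168 to -164 on the minus strand. Mybphl had a GATA match from -141 to -136 and an NKX2-5 match from -21 to -17 on the minus strand. Bmp10 had GATA matches at -219 to -214 and at -33 to -28, and Sbk2 had no match. Among 32851 windows of the same length in the reference, 1.47% held the CArG box, 2.92% the MEF2 site, 9.99% the GATA letters, 40.7% those of NKX2-5, 11.8% those of the T-box family, 14% those of nuclear receptors and 12.4% those of the TATA box. A match describes letters and does not show binding.

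Sln (sarcolipin, ENSMUSG00000042045.6, chromosome 9 from 53850164 to 53854560) is the small membrane protein that inhibits SERCA in atrial and skeletal muscle. Its values in replicates 1 to 5 of WT CNTL were 0.396, 0.0705, 157, 0.0697 and 0, and those of GPx4+/- CNTL were 199, 38.25, 0, 0 and 0. In WT HFHS they were 11.2, 0.984, 0, 0.368 and 0, in GPx4+/- HFHS 0, 0.305, 0, 83.8 and 0, and in WT HFHS + Carnosine 0, 25.6, 0, 0 and 0.0779. Sln was thus listed at 0 in 12 of 25 mice and above 10 in 6, and the ranges of all 5 groups overlapped. The highest mouse held 83.9% to 99.7% of the group's summed Sln, so a group mean described a single animal. The transcript is the only one of the gene in the table.

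The abundant genes of calcium uptake lay within the range of the mice below the gap. Of 7 genes on a list of SERCA pumps and their peptide regulators, 6 were measured and 5 tested, Sln included, and 0 were called in any comparison below. Atp2a2, the cardiac pump, was 4235 to 5339 in the 19 mice below the gap and 4513 to 5143 in the 6 above it. Pln, the ventricular inhibitor, was 2420 to 3138 below the gap and 2431 to 2978 above it, so in all 25 mice Pln exceeded Sln. Atp2a1, the pump of fast skeletal muscle, was too low to be tested. It was 0.972, 0.400, 0.596, 0.389, 0.616 and 0.315 in the 6 mice, in the order given for Sln, against 0.157 to 0.501 (median 0.303) in the others, so 3 of the 6 exceeded all of the 19.

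**Figure D1:**
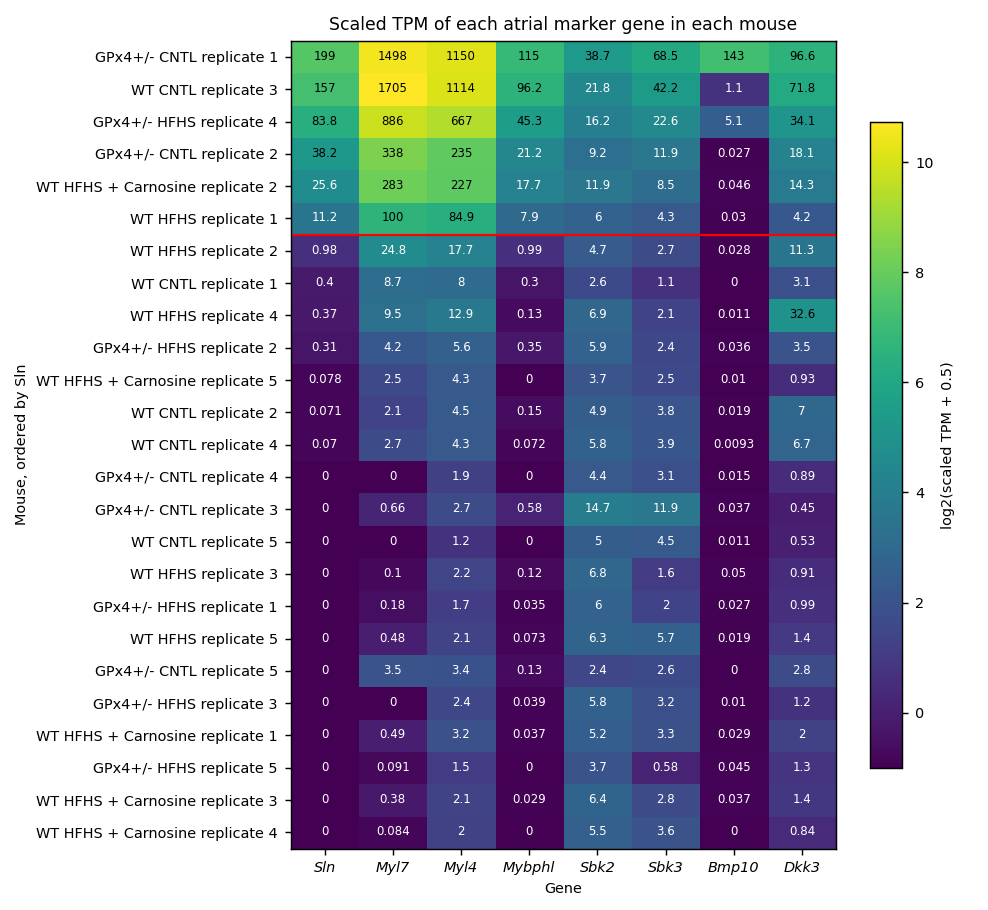
Scaled TPM of the 8 genes (columns) in the 25 mice (rows, ordered by Sln), with colour on the log2(scaled TPM + 0.5) scale and the red line at the widest gap in Sln. The 6 mice above the line are high in Sln, Myl7, Myl4 and Mybphl together, from 11.2 to 199 in Sln, while Bmp10 is above 5 in 2 of them.

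Myl7 (atrial regulatory myosin light chain, ENSMUSG00000020469.8, chromosome 11 from 5896637 to 5898782) reached the highest level of any member. In WT CNTL replicates 1 to 5 it was 8.74, 2.10, 1705, 2.735 and 0, and in GPx4+/- CNTL it was 1497.5, 338, 0.658, 0 and 3.46. In WT HFHS it was 99.6, 24.8, 0.101, 9.50 and 0.477, in GPx4+/- HFHS 0.182, 4.22, 0, 886 and 0.0907, and in WT HFHS + Carnosine 0.486, 283, 0.376, 0.0836 and 2.53. The same 6 mice were the highest, the same step (99.6 against 24.8) was the widest in the gene, and the groups overlapped.

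Myl4 (atrial essential myosin light chain, ENSMUSG00000061086.12, chromosome 11 from 104550663 to 104595753) ran beside Myl7. In the 6 mice, in the order given for Sln, it was 1150.3, 1114, 667, 235, 227 and 84.9. In the 19 other mice it was never 0 and lay between 1.16 and 17.7 (median 2.74). Its reads fell on 8 listed transcripts. Several genes of no known protein lie on the opposite strand within the Myl4 locus, and 0.623% of its 31-base stretches occur in another gene, against 0% for the other 7 members.

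Against the ventricular light chains these were still minor transcripts. Myl2, the ventricular regulatory chain, was 10633 in GPx4+/- CNTL replicate 1 and 11713 in WT CNTL replicate 3, and in the 19 mice below the gap it was 10399 to 15242. Myl3, the ventricular essential chain, was 5060 and 5607 in these mice, against 5225 to 7374 below the gap. Of 13 genes on a list of myosin light chains and myosin-binding proteins, which holds Myl4, Myl7 and Mybphl, 11 were tested and 0 were called in any comparison.

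Mybphl (myosin-binding protein H-like, a thick-filament protein of atrial muscle, ENSMUSG00000068745.6, chromosome 3 from 108364911 to 108380057) was 115, 96.2, 45.3, 21.2, 17.7 and 7.87 in the 6 mice, in the order given for Sln. In the other 19 it was at most 0.993 and listed at 0 in 5. The muscle homologue Mybpc3, which both chambers use, was 844 to 1235 in the 6 mice and 747 to 1490 in the others.

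For Sln, Myl7, Myl4 and Mybphl the 6 highest mice were the same 6 mice, and the widest gap lay at the same place. Their proportions were also similar from mouse to mouse. Over the 6 mice, in which Sln ran from 11.2 to 199, the ratio of Myl7 to Myl4 ran from 1.17 to 1.53, that of Sln to Mybphl from 1.43 to 1.85 and that of Sln to Myl7 from 0.0904 to 0.133. The mouse next in order, WT HFHS replicate 2, had 0.984 in Sln, 24.8 in Myl7, 17.7 in Myl4 and 0.993 in Mybphl, each the highest of the 19 mice below the gap.

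**Figure D2:**
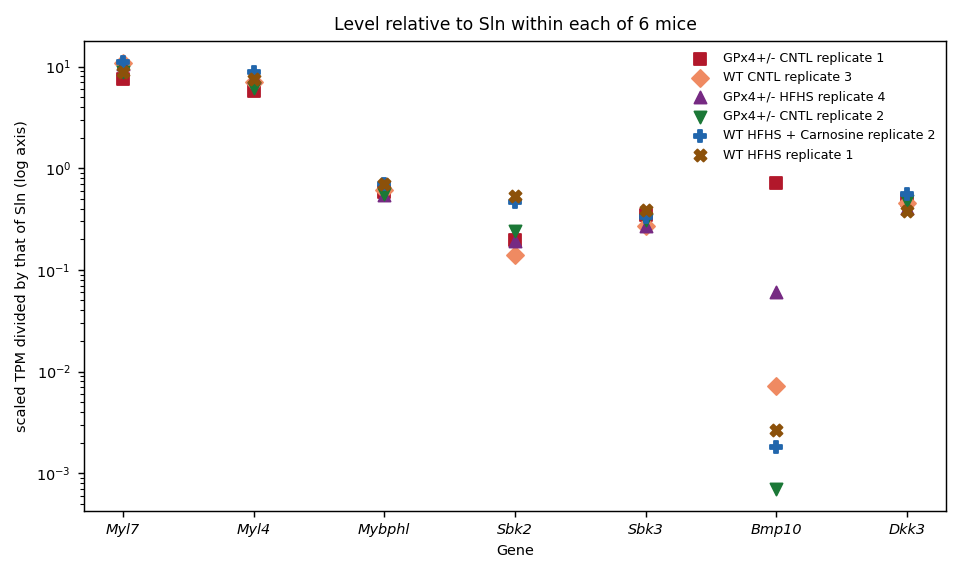
Scaled TPM of each gene divided by that of Sln in the same mouse (log axis), for the 6 mice above the widest gap in Sln. The points lie close together for Myl7, Myl4, Mybphl, Sbk3 and Dkk3, spread for Sbk2, and spread over about 3 powers of 10 for Bmp10.

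Sbk2 and Sbk3 (SH3-domain binding kinases, ENSMUSG00000030433.15 and ENSMUSG00000085272.7) are neighbours on the minus strand of chromosome 7, from 4940512 to 4964406 and from 4965260 to 4971168, with 853 bases between them. Like Myl4, and unlike Sln, Myl7 and Mybphl, both were above 0 in every mouse. Sbk3 in replicates 1 to 5 was 1.12, 3.81, 42.2, 3.89 and 4.46 in WT CNTL, and 68.5, 11.9, 11.9, 3.11 and 2.64 in GPx4+/- CNTL. It was 4.32, 2.71, 1.58, 2.06 and 5.72 in WT HFHS, 2.04, 2.41, 3.19, 22.6 and 0.575 in GPx4+/- HFHS, and 3.30, 8.51, 2.78, 3.56 and 2.49 in WT HFHS + Carnosine. Sbk3 was therefore high in the mice with the highest Sln, but WT HFHS replicate 1 was within the range of its group.

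Sbk2 was 38.7, 21.8, 16.2, 9.18, 11.9 and 6.05 in the 6 mice, in the order given for Sln, and 2.37 to 14.7 (median 5.52) in the other 19. GPx4+/- CNTL replicate 3 was an exception for both kinases, with 14.7 in Sbk2 and 11.9 in Sbk3, while Sln was listed at 0, Myl7 was 0.658 and Mybphl 0.579. The ratio of Sln to Sbk2 varied 3.87-fold over the 6 mice, against 1.43-fold for Sln to Sbk3. Sbk1, the more widely expressed relative, was 35.0 to 48.0 in the 6 mice and 31.1 to 51.9 in the others. The 3' end of Sbk2 overlaps Ssc5d on the opposite strand.

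Bmp10 (ENSMUSG00000030046.6, chromosome 6 from 87428994 to 87437677) was set apart from the other members. It was 143 in GPx4+/- CNTL replicate 1, 5.10 in GPx4+/- HFHS replicate 4 and 1.12 in WT CNTL replicate 3. In the other 22 mice it was at most 0.0499, including GPx4+/- CNTL replicate 2, WT HFHS + Carnosine replicate 2 and WT HFHS replicate 1, which had 0.0266, 0.0465 and 0.0302. WT CNTL replicate 3 and GPx4+/- CNTL replicate 1 had 157 and 199 in Sln, yet the ratio of Bmp10 to Sln was 0.719 in the second and 0.00716 in the first. Bmp10 passed the level filter through GPx4+/- CNTL replicate 1, and its fold changes rest on the 3 mice with values above 1 wherever one of them is in the comparison.

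On a list of 18 BMP ligands, receptors, signal transducers and targets, 16 were tested and 0 were called in any comparison between groups. In GPx4+/- CNTL replicate 1, the mouse with Bmp10 at 143, 12 of the 18 were above and 2 below all mice below the gap of its group, where 24.4% of all genes tested were above and 24.7% below. In the other 5 of the 6 mice, in the order given for Sln, 5, 7, 6, 4 and 1 were above and 3, 2, 3, 2 and 9 below. The shares of all genes there were 20.6% to 25.3% above and 21.2% to 26.7% below. Of the targets of BMP signalling on the list, Id2 was 8.04 in GPx4+/- CNTL replicate 1, against 2.86 to 7.90 (median 3.78) in the 19 mice below the gap. Smad6, an inhibitor of the pathway, was 6.68 in GPx4+/- CNTL replicate 1, against 3.34 to 5.63. Both had their highest value of the 25 mice there. Id2 was also 6.34 in WT CNTL replicate 3 and 6.27 in GPx4+/- HFHS replicate 4. Id1, Id3, Smad7 and Hey1 were 36.9, 38.3, 9.16 and 5.80 in GPx4+/- CNTL replicate 1, within the range of the 19 mice, and so was the co-receptor Eng (103, against 71.8 to 108).

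Dkk3 (ENSMUSG00000030772.6, chromosome 7 from 112116017 to 112159057) was 96.6, 71.8, 34.1, 18.1, 14.3 and 4.25 in the 6 mice, in the order given for Sln, and 0.454 to 32.6 (median 1.35) in the others. The high value below the gap belonged to WT HFHS replicate 4, where Sln was 0.368, and the next was 11.3 in WT HFHS replicate 2. Of the 19 mice below the gap, WT HFHS replicate 4 also had the highest sums of valve (178, where the lowest mouse had 15.0), smooth muscle (1314, lowest 815), fibroblast (1685, lowest 751), endocardial and venous (66.0, lowest 21.0), epicardial (8.93, lowest 2.29) and adipocyte (3.20, lowest 0.145) markers, and of the BMP list. Their part in the Dkk3 value was not tested. Among 8 Dickkopf relatives and Wnt co-receptors, 3 were tested, which were Kremen1, Lrp5 and Lrp6. Of these, Kremen1, a receptor for Dickkopf proteins, was called higher on HFHS in GPx4+/- (log2 fold change 0.39 with a standard error, SE, of 0.081, adjusted p = 0.0115 from limma) and in no other comparison of 2 groups.

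Correlation between members was measured on the log2(scaled TPM + 0.5) scale. No r over all 25 mice is given for pairs of members, since the mice fell into separate clusters. Over the 6 mice above the gap the 28 pairs of members had r from 0.69 to 1.00, with a median of 0.97. Sln and Mybphl gave r = 1.00 and rho = 1 (exact permutation p = 0.00139 and 0.00278, adjusted p = 0.00556 and 0.0111 over 56 pairs and clusters), and r = 0.99 without the 2 mice farthest from the median of Sln. Pairs with Bmp10 were the weakest, as Myl7 and Bmp10 with r = 0.69 and rho = 0.66 (exact permutation p = 0.122 and 0.175, adjusted p = 0.175 and 0.258), and r = 0.96 without the 2 farthest mice. In all, 22 pairs by r and 20 by rho had an adjusted p under 0.05 by permutation. The 6 mice were set apart by a member's own values and came from 5 groups, so these coefficients describe a shared order of levels among single animals.

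Over the 19 mice below the gap, with group means removed, the pairs had a median r of 0.18, from -0.32 to 0.96, and the median was -0.0786 without GPx4+/- CNTL replicate 3. Sln, Mybphl and Bmp10 average under 1 in these mice, and pairs with them describe values near 0. The 10 pairs among the other 5 members had a median r of -0.19, and 4 of them by r and 3 by rho had an adjusted p under 0.05 by permutation. The atrial light chains still moved together (Myl7 and Myl4, r = 0.96 and rho = 0.94, permutation p = 2e-05 and 5e-05, adjusted p = 0.00112 and 0.0028), and r was 0.94 without the 2 mice farthest from the median of Myl7. Myl4 and Dkk3 had r = 0.81 and rho = 0.82 (permutation p = 0.011 and 0.00372, adjusted p = 0.022 and 0.013), with r = 0.78 without the 2 farthest mice. Sbk2 and Sbk3 had r = 0.75 and rho = 0.60 (permutation p = 0.0106 and 0.0292, adjusted p = 0.022 and 0.0563), and r = 0.65 without the 2 farthest mice.

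**Figure D3:**
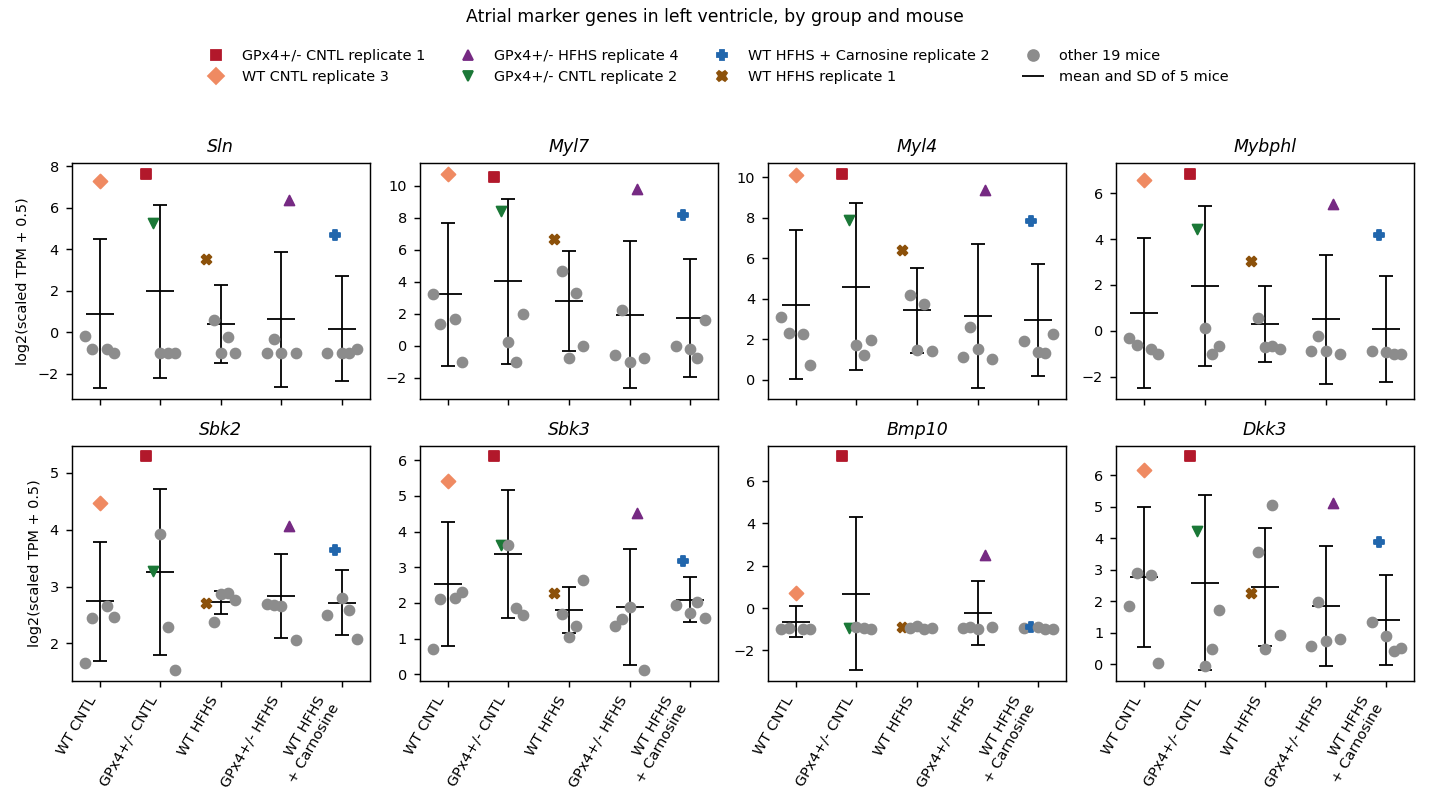
Level of each gene on the log2(scaled TPM + 0.5) scale by group, with 1 point per mouse in replicate order and the mean and SD of 5 mice in black. The 6 mice above the widest gap in Sln have their own symbols, and in Sln, Myl7, Myl4 and Mybphl the highest point of every group is one of them.

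Within groups the members were among the most variable genes of the heart libraries. The pooled within-group SD on the log2 scale was 4.26 for Myl7, the largest of the 11983 genes tested, 3.33 for Myl4, 3.19 for Sln and 2.79 for Mybphl, which ranked 3, 4 and 5. Dkk3 (2.10) ranked 11, Bmp10 (1.79) 21, Sbk3 (1.39) 75 and Sbk2 (0.91) 146. The median gene had an SD of 0.15. Differences between group means held 3.62% (Myl4) to 17.8% (Sbk3) of a member's sum of squares, against 19.9% for the median gene.

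Of the 8 members, all 8 averaged 1 scaled TPM or more over the 25 mice and so entered the tests. Without the 6 mice 5 would pass, and Sln, Mybphl and Bmp10 would not. Comparisons were made with limma on the log2 scale, with p-values adjusted over all genes tested by the Benjamini-Hochberg method. Comparisons that share a group share its mice, as the WT HFHS mice are shared by the diet, genotype and carnosine comparisons.

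HFHS against CNTL in WT called 0 of 8 members, against 142 of 11983 genes (1.19%), and 0 members against 16.5% of genes had an unadjusted p under 0.05 from limma. All 8 point estimates were below 0, from -0.73 (Sbk3, SE 0.88) to -0.01 (Sbk2, SE 0.56), beside a median of 0.00 for all genes. Sln had a log2 fold change of -0.52 (SE 1.92, adjusted p = 0.924 from limma) and Myl7 one of -0.43 (SE 2.53, adjusted p = 0.951 from limma). Without WT CNTL replicate 3 these were 1.08 and 1.45. That was the one mouse whose removal turned the sign for Sln, whereas for Myl7 the sign also turned without WT HFHS replicate 3 (0.45) or replicate 5 (0.27).

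HFHS against CNTL in GPx4+/- called 0 of 8 members, against 400 of 11983 genes (3.34%), and 0 members against 18.4% of genes had an unadjusted p under 0.05 from limma. The estimates ran from -2.09 (Myl7, SE 2.53, adjusted p = 0.724 from limma) to -0.43 (Sbk2, SE 0.56), and Sln had -1.37 (SE 1.92, adjusted p = 0.771 from limma). Sbk3 had the smallest p of any member in any comparison (log2 fold change -1.50, SE 0.88, adjusted p = 0.389 from limma). Leaving out GPx4+/- CNTL replicate 1 moved Sln to 0.05, Myl7 to -0.46 and Sbk3 to -0.81, and leaving out GPx4+/- HFHS replicate 4 moved them the other way, Myl7 to -4.05 and Sbk3 to -2.16. Among the settings run, a member was called once, with the level of the other atrial genes described below as a covariate, which was Sbk3 at -1.28 (adjusted p = 0.0408 from limma).

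GPx4+/- against WT called 0 of 8 members on CNTL and 0 of 8 on HFHS, against 6 of 11983 genes (0.0501%) each. At an unadjusted p under 0.05 from limma there were 0 members on either diet, against 6.29% of genes on CNTL and 4.56% on HFHS. On CNTL the estimates ran from -0.18 (Dkk3) to 1.32 (Bmp10, SE 1.16, adjusted p = 0.896 from limma), and Sln had 1.08 (SE 1.92) and Myl7 0.83 (SE 2.53). Without GPx4+/- CNTL replicate 1 the estimates were -0.31 for Bmp10, -0.33 for Sln and -0.80 for Myl7. On HFHS they ran from -0.83 (Myl7, SE 2.53) to 0.69 (Bmp10, SE 1.16), with 0.23 for Sln, and without GPx4+/- HFHS replicate 4 Myl7 was -2.79, Sln -1.21 and Bmp10 0.00527.

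The interaction of diet with genotype called 0 members and 0 of 11983 genes (0%) in limma, with 0 members and 856 genes (7.14%) at an unadjusted p under 0.05. Estimates ran from -1.65 (Myl7, SE 3.58) to -0.42 (Sbk2, SE 0.80), with -0.85 for Sln. Carnosine in WT HFHS also called 0 members and 0 of 11983 genes (0%), with 0 members and 504 genes (4.21%) at an unadjusted p under 0.05 from limma. There the estimates ran from -1.04 (Dkk3, SE 0.89, adjusted p = 0.947 from limma) to 0.28 (Sbk3, SE 0.34), with -0.20 for Sln (SE 1.19) and -1.02 for Myl7 (SE 1.81). Over all 5 groups, limma F testing called 0 members and 385 of 11983 genes (3.21%), with 0 members and 2028 genes (16.9%) at an unadjusted p under 0.05.

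With the 4 groups in 1 fit, SEs of the members were 0.56 to 2.53 on the log2 scale, against 0.09 for the median gene, so differences of several fold between groups were not detectable for the light chains and Sln. Two-sided exact permutation tests of 5 mice against 5 gave p from 0.230 upwards over 40 tests (adjusted p = 1), where 0.00794 is the smallest p the design allows. The number of members whose groups did not overlap was 0 in each of these 5 pairs of groups. Over all genes tested the share was 4.51% for diet in WT, 4.47% for diet in GPx4+/-, 0.926% for genotype on CNTL, 0.726% for genotype on HFHS and 0.609% for carnosine.

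**Figure D4:**
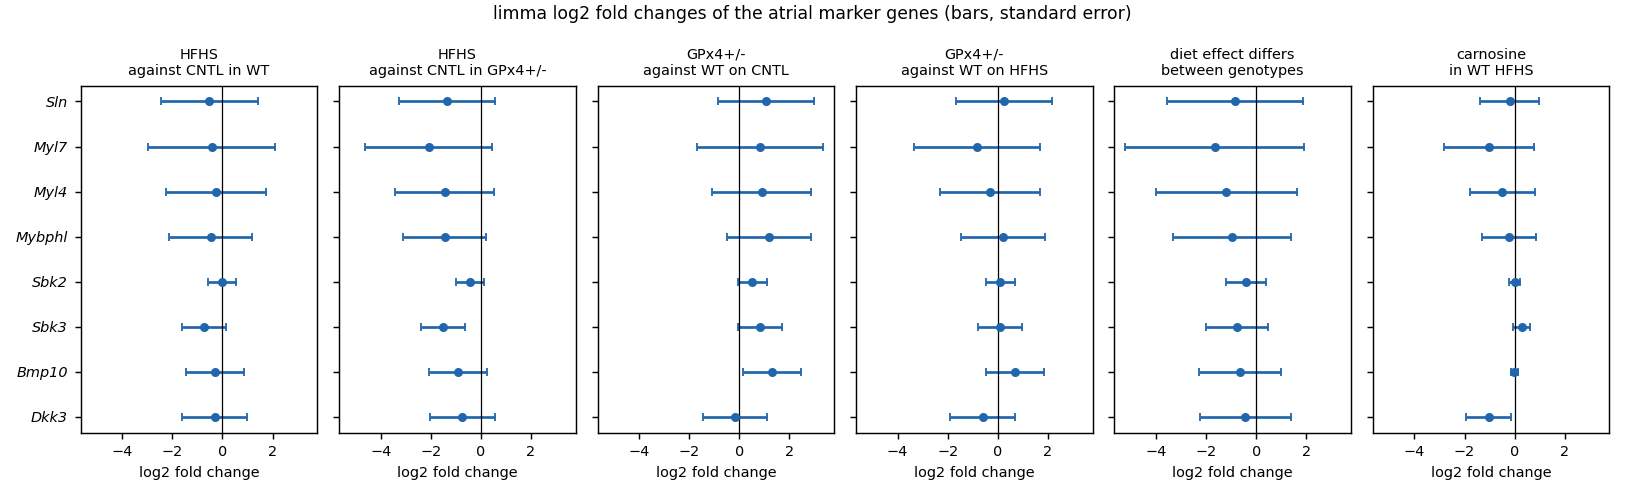
limma log2 fold change of each gene (point) with its standard error (bar) in 6 comparisons. The bars of Sln, Myl7, Myl4 and Mybphl are 1 log2 unit or longer to each side of the point, up to 2.53 in comparisons of 2 groups, and every one of these crosses 0.

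Without the 6 mice above the gap, again 0 of 8 members were called in any of the 7 tests, and 0 had an unadjusted p under 0.05 from limma. Of these 8, Sln, Mybphl and Bmp10 average under 1 in the 19 mice kept. They stayed in the tests through the 6 mice left out, so the result bears on the other 5 members. The smallest p was that of Sbk3 for HFHS against CNTL in GPx4+/- (log2 fold change -1.16, SE 0.54, adjusted p = 0.292 from limma). Sln, at values near 0 in the mice kept, went to 0.29 in the WT diet comparison and to 0.17 in that of GPx4+/-. Over all genes, 284 (2.37%) were then called for diet in WT and 241 (2.01%) for diet in GPx4+/-, of which 90 and 173 were among the 142 and 400 called with all mice. The other tests then called 4 genes (0.0334%) for genotype on either diet, 0 for the interaction and for carnosine, and 264 (2.2%) over all 5 groups. The mice were left out by the value of a member and after the data were seen.

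Other genes known from atrial muscle were raised in some of the 6 mice and not in others. Nppa, which encodes atrial natriuretic peptide, was 4349 in GPx4+/- CNTL replicate 1, 1584.5 in WT CNTL replicate 3, 1050.5 in GPx4+/- HFHS replicate 4 and 868 in GPx4+/- CNTL replicate 2. In WT HFHS + Carnosine replicate 2 and WT HFHS replicate 1 it was 44.1 and 80.0, within the 28.2 to 255 of the 19 mice below the gap. Pam, which amidates peptide hormones, was 766, 630, 474, 389, 270 and 238 in the 6 mice in the order given for Sln, against 178 to 263. Kcnk3, a background potassium channel, was 85.7 to 98.6 in the 6 mice and 82.6 to 112 in the others.

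Of the 13 genes on that list, 11 were above every mouse below the gap of the same group in GPx4+/- CNTL replicate 1, 10 in WT CNTL replicate 3 and 9 in GPx4+/- HFHS replicate 4. The count was 4 in GPx4+/- CNTL replicate 2, 7 in WT HFHS + Carnosine replicate 2 and 4 in WT HFHS replicate 1. Of all genes tested, 20.6% to 25.3% were above these mice in the same sense, and 21.2% to 26.7% were below them. Of the 13, 11 were tested and 0 were called in any comparison. Of the ventricular markers, 0 of 8 were above and 5 of 8 below those mice in GPx4+/- CNTL replicate 1, 0 above and 7 below in WT CNTL replicate 3, and 1 above and 0 below in GPx4+/- HFHS replicate 4. In GPx4+/- CNTL replicate 2 these counts were 0 above and 3 below, in WT HFHS + Carnosine replicate 2 they were 4 and 0, and in WT HFHS replicate 1 they were 3 and 0. Of the 8 tested ventricular genes, Kcnip2, an ion channel subunit, was called lower on HFHS in WT and in GPx4+/- (log2 fold change -0.60 in each, SE 0.11, adjusted p = 0.0151 and 0.00665 from limma).

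**Figure D5:**
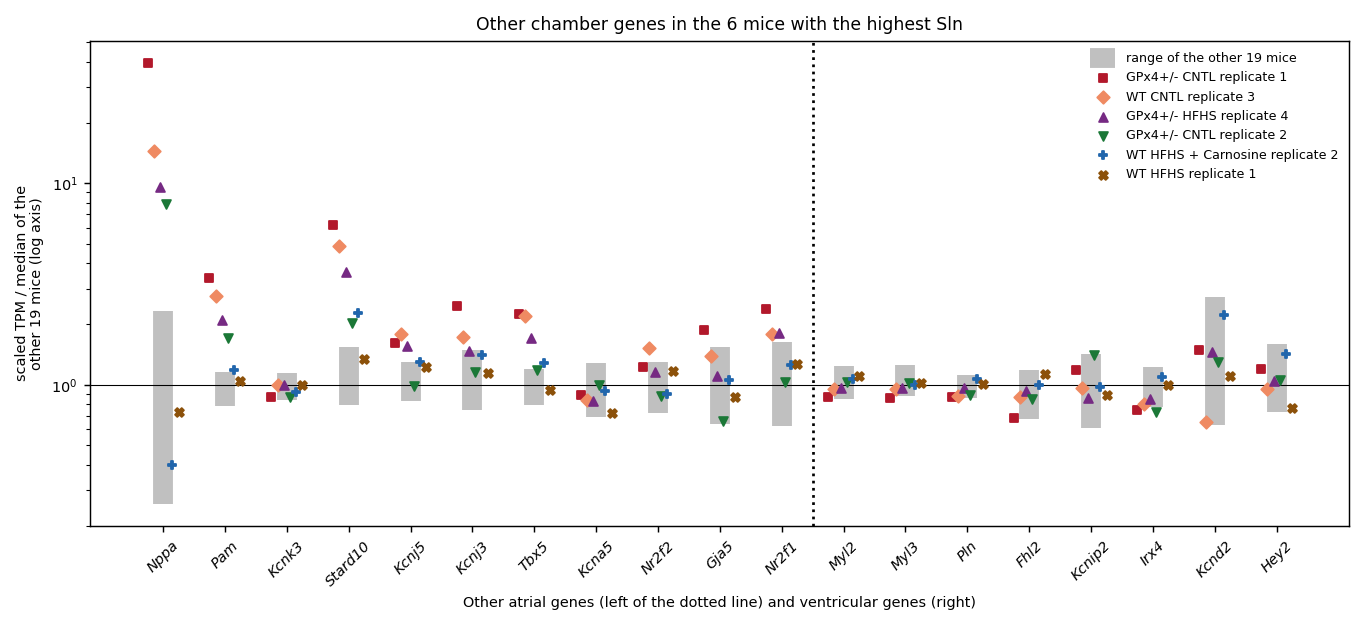
Scaled TPM of 11 other atrial genes and 8 ventricular genes in the 6 mice (symbols), divided by the median of the other 19 mice (log axis), with the range of those 19 mice as grey bars. Nppa is far above the bar in 4 mice and within it in 2, and the ventricular genes Myl2, Myl3 and Pln stay close to 1.

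Summed markers of other structures in the 6 mice overlapped in range with those of the mice below the gap. Medians were higher in the 6 mice for valve (54.2 against 22.1), adipocyte (4.08 against 0.438), Schwann cell (12.4 against 6.77) and fibroblast markers (1429.5 against 978). The median was lower in the 6 mice for smooth muscle markers (913 against 964). The part of these structures in the members' levels was not tested. The summed valve markers were 161.6 in WT CNTL replicate 3 and 16.3 to 83.4 in the other 5 mice, against 15.0 to 178 (median 22.1) below the gap. Of 7 valve markers, 6, 7, 6, 6, 7 and 0 were above the mice below the gap of the group, in the order given for Sln. The summed epicardial markers were 3.06 to 12.8, against 2.29 to 8.93, and the number of 7 above the mice below the gap of the group was 7, 6, 6, 1, 5 and 3 in the 6 mice, in the order given for Sln, beside the 20.6% to 25.3% of all genes. Adipocyte markers summed to 1.22 to 8.07, against 0.145 to 3.20, and Schwann cell markers to 8.46 to 14.3, against 3.12 to 11.2. Counted in the same way and order, 5, 6, 4, 1, 6 and 1 of 6 adipocyte markers were above. For Schwann cell markers the counts were 2, 5, 5, 2, 5 and 4 of 5, and for fibroblast markers 5, 6, 5, 1, 4 and 0 of 7. Endocardial and venous markers summed to 23.5 to 73.0, against 21.0 to 66.0, and fibroblast markers to 936 to 1696.5, against 751 to 1685. Sinoatrial markers summed to 7.90 to 17.7, against 6.64 to 11.0, and Hcn4, Tbx3 and Tbx18 had the highest levels among them. Hcn4 was 1.93 to 6.19, against 1.78 to 5.82, Tbx3 was 3.32 to 5.31, against 2.56 to 5.11, and Tbx18 was 0.930 to 1.84, against 0.904 to 1.78. Shox2, a transcription factor of lower level, was 0.311 to 2.59, against 0.0324 to 0.624. Smooth muscle markers (875 to 983, against 815 to 1314) and markers of skeletal muscle (3.17 to 5.83, against 2.44 to 7.72) lay within the range of the mice below the gap. Among defining markers, Isl1 of the sinoatrial node was listed at 0 in 22 mice, Myh4 of fast skeletal muscle at 0 in 16 and Upk1b of the epicardium at 0 in 6. Upk1b was 0.9201, 0.5296, 0.2728, 0.0667, 0.6409 and 0.4781 in the 6 mice above the gap, in the order given for Sln. In the mice below the gap Upk1b had a median of 0.02497 and reached 0.2996. A value of 0 does not show that a structure was absent. Markers shared by all cardiomyocytes summed to 36719 to 38973, against 34498 to 41718.

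Of these lists, sinoatrial markers had 3 of 7 tested and Hcn4, the pacemaker channel, called higher on HFHS in GPx4+/- (log2 fold change 0.71, SE 0.19, adjusted p = 0.0465 from limma). Shared cardiomyocyte markers had 10 of 10 tested and Ttn, the gene of titin, called lower in the same comparison (log2 fold change -0.36, SE 0.064, adjusted p = 0.00509 from limma). In the comparisons of 2 groups and of the diet effects, 0 of the tested genes were called among endocardial and venous (4), epicardial (1), smooth muscle (7), valve (6), fibroblast (7), hepatocyte (6), skeletal muscle (2) and Schwann cell (3) markers, and no adipocyte marker was tested.

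Genes outside the list with the pattern most like that of the members were sought over the 25 mice, as Pearson's r between their log2 deviations from the group mean and the mean standardised deviation of the 8 members. Unlike the r of member pairs, this r spans the separate clusters of mice. It is a description, rests largely on the 6 mice and mainly restates how they differ from the other mice. Of 11975 genes, 13 had r above 0.9 and 69 above 0.8. Tmem163, a zinc transporter, was most alike (r = 0.98), with 13.7, 8.03, 3.78, 2.03, 1.09 and 0.397 in the 6 mice and at most 0.273 in the others. Fgf12, a fibroblast growth factor homologue that binds sodium channels, had r = 0.98, with 20.0, 18.8, 9.40, 5.15, 3.37 and 2.20 against at most 0.536. Both were above all 19 mice below the gap in every one of the 6. Neither reached 1 in the 19 mice, so both passed the level filter through the 6 mice. Their likeness was thus partly set by the filter.

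The next were Lmntd1 (r = 0.97), Stard10 (0.95), Ptgfr (0.95), the gene of the prostaglandin F receptor, Ppp1r1b (0.93), Slc7a7 (0.93), Pam (0.93), Tbc1d1 (0.92), Olfm1 (0.92), Gpx3 (0.92) and Aldh1b1 (0.91). Of these, Lmntd1 and Ppp1r1b had medians of 0.474 and 0.310 in the mice below the gap, under the filter level of 1. Gpx3, which encodes the secreted relative of glutathione peroxidase 4, was 520, 436, 315, 181, 187 and 165.1 in the 6 mice, in the order given for Sln, against 97.9 to 165.3 in the others. The most opposite genes were Pptc7 (r = -0.82), Kti12 (-0.81) and Pacsin2 (-0.78), and Pptc7 was 46.6 to 57.0 in the 6 mice against 53.0 to 69.3 in the others.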

How the data were processed

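RNA-seq of 25 mouse hearts was analysed (poly(A) RNA, TruSeq stranded libraries, paired-end reads). The authors deposited a table of TPM per transcript; their processing notes name kallisto 0.43.1, sleuth 0.30.0 and GRCm38, whereas the methods of the paper name STAR and DESeq2 for gene counts, which were not used here. TPM keeps no depth, so counts cannot be recovered. Here TPM was summed per gene symbol with GENCODE M21, scaled by median ratios over 11879 genes, and transformed as log2(scaled TPM + 0.5). Genes with a mean of at least 1 were tested with limma 3.58.1 (trend, R 4.3.3). The 4 groups without carnosine shared 1 fit, carnosine was compared with WT HFHS, and an F test took all 5 groups. Sums, exact tests and correlations used Python 3.11.15, numpy 2.4.6, scipy 1.17.1 and pandas 2.3.3.

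Members and lists were chosen with earlier results of these data known. From each other list at most 3 genes, those of highest mean level, were named as examples, beside genes called and the genes most and least alike the members. Atp2a1, Shox2, Isl1, Myh4, Upk1b, Mybpc3, Sbk1, Eng, Id1, Id2, Id3, Smad6, Smad7, Hey1, Lrp5 and Lrp6, where outside that rule, were chosen after their values were seen, and so were Gpx3 and Pptc7 for their per-mouse values. On simulated data with a log2 change of 1 in 200 of 11983 genes, the diet comparison in WT recovered 187 of them, with 13 false calls. The 200 were drawn from all genes, with independent noise at each gene's own SD. This recovery therefore does not apply to the members, whose SEs were 0.56 to 2.53 against 0.09 for the median gene. Alternatives were another pseudocount, quantile normalization, no filter on low values, array weights, a covariate of other atrial genes, the replicate block and leaving out single mice.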

Additional observations from a re-analysis of the deposited data

Results flagged for a closer look

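Within a group of 5 mice, a sample was taken up here when its gap to the next mouse was over 0.71 of the range of the group on the log2(scaled TPM + 0.5) scale. Chance gives about 1 in 20 such gaps in values that spread evenly about a mean. Of 40 sets of values 15 had one, all at the high end and all in the 6 mice above the gap in Sln. Of these, 9 are of Sln, Mybphl and Bmp10, which average under 1 in the other mice and so lie near the floor of the scale, where the chance rate does not apply. The members share the same mice, so the 15 are not independent.

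In WT CNTL replicate 3 the gap was 0.899 of the range for Sln (157, with 0.396 as the next value), 0.750 for Myl4, 0.911 for Mybphl and 0.969 for Bmp10. In GPx4+/- HFHS replicate 4 it was 0.907 for Sln, 0.810 for Myl4, 0.882 for Mybphl and 0.972 for Bmp10. WT HFHS + Carnosine replicate 2 had 0.963 for Sln, 0.734 for Myl7, 0.854 for Myl4, 0.980 for Mybphl, 0.724 for Sbk3 and 0.738 for Dkk3. In GPx4+/- CNTL replicate 1 the gap was 0.987 for Bmp10 alone, and replicate 2 of that group was also high in Sln, Myl7, Myl4 and Mybphl.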

How the results depend on the processing

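The number of members called was 0 in each of 7 tests, and 72 of 73 counts under other settings and 135 of 135 with a mouse left out gave the same count. The exception was 1 member, Sbk3 for diet in GPx4+/-, with other atrial genes as a covariate. Signs of single fold changes were less stable, and 18 of 245 turned under other settings and 28 of 420 with a mouse left out. Of the WT diet effect, array weights gave 0.19 for Sln, 0.14 for Myl7 and 0.14 for Sbk2, the covariate 0.36, 0.59 and 0.26, and leaving out the 6 mice 0.29, 0.48 and 0.42, and a pseudocount of 0.1 gave 0.00172 for Sbk2. Without the 6 mice, where Sln lies near the floor of the scale, Sln was 0.17 for diet in GPx4+/-. Genotype on CNTL then gave -0.30 for Sln and -0.92 for Myl7, while array weights gave 0.0378 for Dkk3. For genotype on HFHS, Sln was -0.15 with a pseudocount of 0.1, -0.0156 with array weights, -0.69 with the covariate and -0.42 without the 6 mice.

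With single mice left out, the WT diet effect ranged from -1.31 to 1.08 for Sln, -1.48 to 1.45 for Myl7 and -0.29 to 0.42 for Sbk2, and the GPx4+/- diet effect from -2.81 to 0.048 for Sln and -0.87 to 0.0765 for Sbk2. Genotype on CNTL ranged from -0.33 to 2.68 for Sln, -0.80 to 2.71 for Myl7, -0.31 to 1.74 for Bmp10 and -1.18 to 0.68 for Dkk3, and genotype on HFHS from -1.21 to 1.03 for Sln and -2.79 to 0.14 for Myl7. The difference in diet effect ranged from -2.44 to 0.57 for Sln and -0.85 to 0.0911 for Sbk2, and carnosine from -1.33 to 0.59 for Sln. The cause was not tested beyond the mouse left out.

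The median r of member pairs below the gap (0.176) was -0.00291 with quantile normalization, -0.0325 without GPx4+/- CNTL, 0.281 without WT CNTL, and -0.0786 to 0.293 with a mouse left out. Replicate numbers were not treated as a pairing. In 0 of 10 pairs of groups did every pair of same-numbered mice have r above 0.1 (r from -0.341 to 0.232). This check could not find a pairing of only some mice. With the replicate block, 0 members were called in any test and the median r below the gap was -0.0074. Group mean removal, the block and leaving out groups were not run for the 6 mice above the gap. TPM carries no depth, so values under 1 have an unknown counting error.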
